A study of Homo sapiens with 6 samples.

Results

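The genes described here are SERPINE2, PLAU, PLAUR, PLAT, MMP2, MMP14, TIMP1, TIMP2 and TIMP3, 9 genes of the plasminogen system and of the matrix metalloproteinases with their inhibitors. They were taken by gene symbol from a table of 58735 genes, in which each of the 9 had 1 row. The libraries are labelled Hep3B, a line derived from a human liver cancer, in a study of how the transcriptome differs once the endoplasmic reticulum chaperone HYOU1 is knocked down. In 3 libraries the cells carried a short hairpin RNA (shRNA) against HYOU1 and in 3 they carried a control shRNA, and polyadenylated RNA was sequenced. The labels do not say how many hairpin sequences were used, whether the shRNA cells were a pool or a clone, or whether replicates were separate cultures, so p-values measure the spread between libraries, which may be technical.

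Plasminogen is a circulating zymogen that urokinase (PLAU) and tissue-type plasminogen activator (PLAT) cleave to plasmin, a broad serine protease. PLAUR holds urokinase at the cell surface, and serpins such as SERPINE2 trap the activators. Matrix metalloproteinases (MMPs) cleave collagens and other matrix proteins, MMP14 sits in the plasma membrane and activates secreted MMP2, and the tissue inhibitors of metalloproteinases (TIMPs) block the active enzymes. In liver both systems are known for the turnover of matrix in fibrosis and in tumours.

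Values are FPKM, fragments per kilobase of gene length and per unit of a scaled library total, so levels of different genes can be compared per length. The libraries held 16893091 to 18233240 fragments. HYOU1 was at 2.35, 2.32 and 2.37 FPKM in replicates 1, 2 and 3 with HYOU1 shRNA, against 37.6, 58.2 and 59.5 FPKM in control shRNA replicates 1, 2 and 3, which fits the labels. Control shRNA replicate 1 stood apart: across the 12448 genes tested its log2 values had a Pearson correlation of 0.906 and 0.892 with the other control libraries, which had 0.971 with each other, and 7.59% of its fragments were mitochondrial, against 3.39% to 5.17% in the other 5 libraries. Calls of the members and of the related genes named are therefore also given without it and after a correction for GC content. Of 15 hepatocyte markers, RBP4 alone reached a mean of 1 FPKM, and ALB, APOA2, APOB, APOH and TTR were listed at 0 in every library, so the defining genes of the labelled cell type were absent or nearly so. Whether the cells were Hep3B was not tested.

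With HYOU1 shRNA, SERPINE2, TIMP3 and PLAUR rose, and the other members were not called in either direction. SERPINE2 had a 2.79-fold higher mean level, TIMP3 1.66-fold and PLAUR 1.47-fold. MMP2 and MMP14 averaged under 1 FPKM and were not tested, which left 7 members. Of these, 3 rose at an adjusted p under 0.05 (limma, Benjamini-Hochberg adjustment over all genes tested), where 6.6% of all genes tested rose, 5.66% fell and 12.3% were called in either direction. No member fell in that test. At an unadjusted p under 0.05 (limma) 4 members were higher and 1 was lower, where at least 3463 of the 12448 genes tested were under that cut. With voom on recovered fragments 3 members were called higher and 0 lower, where 1764 of all genes tested were called. The groups were apart in 5 of the 7, against 44.4% of all genes tested: SERPINE2, PLAUR, TIMP3 and PLAT lay higher with HYOU1 shRNA (23.8% of all genes tested) and TIMP1 lower (20.6%). Without control shRNA replicate 1, SERPINE2, TIMP3 and PLAUR rose and TIMP1 fell, where 44.3% of all genes were called, 24.6% as a rise and 19.7% as a fall. After the GC correction the same members were called in the same directions, where 40.6% of all genes were called, 20.4% as a rise and 20.2% as a fall. The median log2 fold change of the 7 was 0.53, beside 0.035 over all genes tested. In RNA from a whole culture, a change in the share of cells that express a gene and a change in its RNA per cell cannot be told apart.

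**Figure D1:**
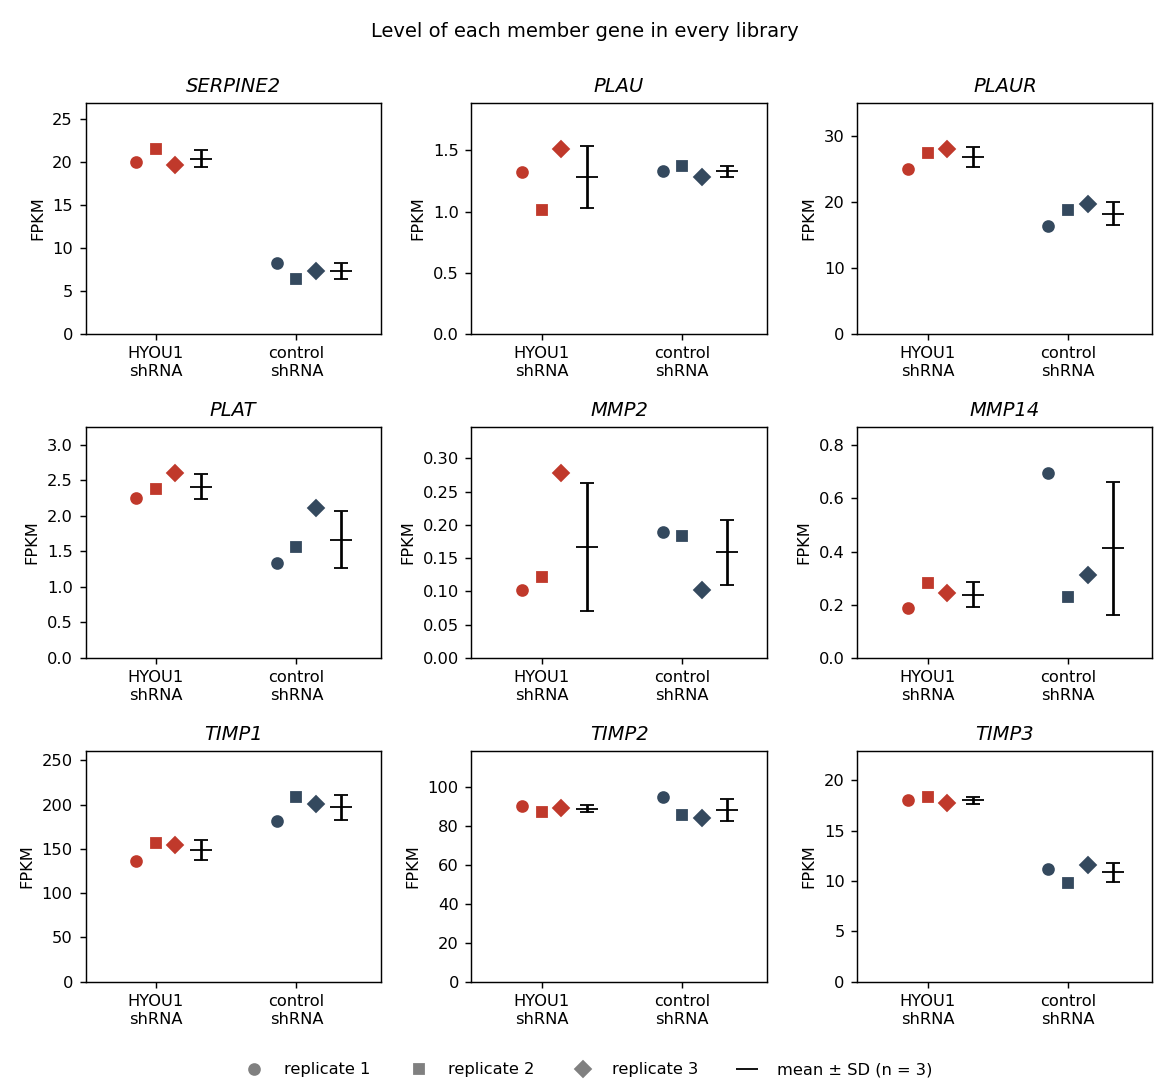
Level of each of the 9 genes in FPKM (vertical axes, each from 0) in the 3 HYOU1 shRNA and the 3 control shRNA libraries; symbols mark the replicate, and the bar beside them the mean ± SD. The groups are apart in SERPINE2, PLAUR, PLAT, TIMP1 and TIMP3 and overlap in PLAU, MMP2, MMP14 and TIMP2.

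The levels spanned a wide range. With HYOU1 shRNA the order from high to low was TIMP1, TIMP2, PLAUR, SERPINE2, TIMP3, PLAT, PLAU, MMP14 and MMP2, and with control shRNA SERPINE2 and TIMP3 stood in the other order. TIMP1 averaged more FPKM than 98.5% of the genes tested over the 6 libraries and TIMP2 more than 96.8%, whereas PLAU exceeded 6.39%. Neighbours in the order whose values overlapped were MMP14 and MMP2 with HYOU1 shRNA and PLAT and PLAU with control shRNA. All other neighbours within a group were separated in every library.

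The promoter windows of the 3 genes that rose, and of TIMP1, whose values lay lower in every HYOU1 shRNA library, are shown so that the genes that moved can be compared letter by letter. Each runs from 250 bases before to 50 bases after the gene start that RefSeq gives on GRCh38.p14, on the gene's own strand. The table of promoters had an entry for 6 of the 9 genes. Capitals mark matches on either strand to any of 4 motifs. The AP-1 site was searched as TGANTCA. The SP1 site was searched as GGGCGG. The other marked motifs were the CCAAT box and the palindromic E-box that is spelled CACGTG. SERPINE2 is the window chr2:224031429-224031728 (minus strand), PLAUR chr19:43670120-43670419 (minus strand), TIMP3 chr22:32801455-32801754 (plus strand) and TIMP1 chrX:47582186-47582485 (plus strand).
SERPINE2: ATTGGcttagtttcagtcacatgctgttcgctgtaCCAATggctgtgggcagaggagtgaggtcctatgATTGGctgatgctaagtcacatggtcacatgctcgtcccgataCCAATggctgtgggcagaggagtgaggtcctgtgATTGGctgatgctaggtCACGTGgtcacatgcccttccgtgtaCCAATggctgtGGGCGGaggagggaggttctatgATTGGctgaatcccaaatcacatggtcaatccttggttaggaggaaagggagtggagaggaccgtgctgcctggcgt
PLAUR: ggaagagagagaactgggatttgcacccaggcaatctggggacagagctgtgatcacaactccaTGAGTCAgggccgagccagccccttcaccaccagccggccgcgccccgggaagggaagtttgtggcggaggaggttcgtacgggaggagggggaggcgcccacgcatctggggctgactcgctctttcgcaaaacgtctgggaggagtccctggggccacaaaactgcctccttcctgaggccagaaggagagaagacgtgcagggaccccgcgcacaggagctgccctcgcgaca
TIMP3: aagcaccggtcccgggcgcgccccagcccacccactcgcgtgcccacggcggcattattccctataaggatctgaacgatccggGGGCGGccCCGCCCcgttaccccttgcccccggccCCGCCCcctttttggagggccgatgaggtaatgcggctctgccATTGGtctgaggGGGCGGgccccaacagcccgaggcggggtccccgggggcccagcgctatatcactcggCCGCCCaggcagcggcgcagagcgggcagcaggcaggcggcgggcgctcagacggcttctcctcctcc
TIMP1: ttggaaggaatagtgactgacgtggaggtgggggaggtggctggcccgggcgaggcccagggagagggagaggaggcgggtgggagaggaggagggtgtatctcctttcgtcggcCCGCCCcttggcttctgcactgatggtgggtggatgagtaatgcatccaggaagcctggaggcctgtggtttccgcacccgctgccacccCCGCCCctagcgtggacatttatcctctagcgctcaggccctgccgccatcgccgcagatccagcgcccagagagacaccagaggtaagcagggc

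No marked motif was in all 4 windows. PLAUR held 1 AP-1 site, which begins 186 bases before the start and which 7.71% of 35116 promoters of this length hold. TIMP3 held 5 SP1 sites and TIMP1 held 2, where 5.14% and 26.7% of promoters hold at least that many and 45% hold 1 or more. SERPINE2 held 1 SP1 site, 1 CACGTG, which 7.26% of promoters hold, and 7 CCAAT boxes. At least 7 CCAAT boxes were found in 8 of the 35116 promoters, or 0.0228%, and 1 or more in 34.6%. The CCAAT box, the E-box and the endoplasmic reticulum stress element were searched after the sequences had been seen. That element was in none of the 6 windows and in 0.0769% of promoters, and TATAAA, in 11.5% of promoters, was in none of the 6 either. Among the 4 windows printed, GC content ran from 54% in SERPINE2 to 72.7% in TIMP3, against a median of 58.7% over all promoters. A match is a run of letters and not a shown binding site, and the SERPINE2 and PLAUR windows lie inside their genes' annotated intervals. Other starts of these genes were not examined.

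SERPINE2 (ENSG00000135919, chromosome 2, 223975112 to 224039319, minus strand, GRCh38) encodes protease nexin-1, a serpin that inhibits thrombin, urokinase and plasmin. It was at 20.0, 21.5 and 19.6 FPKM in replicates 1, 2 and 3 with HYOU1 shRNA, against 8.22, 6.38 and 7.27 FPKM in control shRNA replicates 1, 2 and 3. The lowest HYOU1 shRNA library lay far above the highest control library. The means were 20.4 ± 0.968 FPKM with HYOU1 shRNA and 7.29 ± 0.924 FPKM with control shRNA (SD, n = 3 each). On the log2 scale it rose by 1.48 (standard error 0.13, 95% interval 1.16 to 1.79; limma, adjusted p = 0.00446). By log2 fold change it ranked 214 of 12448 genes, so 1.71% of the genes tested had a larger one. The call held in all 20 alternatives run, among them leaving out each library in turn, with log2 fold changes of 1.37 to 1.62. It passed narrowly without HYOU1 shRNA replicates 1, 2 or 3 (limma, adjusted p = 0.0451, 0.0465 and 0.0474). Between 1062 and 3504 fragments lay behind each value.

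PLAUR (ENSG00000011422, chromosome 19, 43646095 to 43670547, minus strand) encodes the urokinase receptor, which is anchored in the membrane by a lipid. It was at 25.0, 27.4 and 28.0 FPKM in replicates 1, 2 and 3 with HYOU1 shRNA, against 16.3, 18.7 and 19.6 FPKM in control shRNA replicates 1, 2 and 3. The lowest HYOU1 shRNA library lay above the highest control library. It rose by 0.56 on the log2 scale (standard error 0.12; limma, adjusted p = 0.0343). This call was the least firm of the 3. PLAUR did not pass without HYOU1 shRNA replicates 1, 2 or 3 (limma, adjusted p = 0.126, 0.157 and 0.166), without control shRNA replicates 2 or 3 (0.0941 and 0.0557), under the replicate block, which fits the replicate number as a term (0.0603), or with no filter on low values (0.0744). It passed without control shRNA replicate 1 at 0.48 (limma, adjusted p = 0.00108) and after the GC correction at 0.40 (limma, adjusted p = 0.00866).

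The activators themselves were scarce. PLAU (ENSG00000122861, chromosome 10, 73909177 to 73917497, plus strand), the ligand of that receptor, was at 1.33, 1.01 and 1.51 FPKM in replicates 1, 2 and 3 with HYOU1 shRNA, against 1.33, 1.37 and 1.28 FPKM in control shRNA replicates 1, 2 and 3. The groups overlapped and the control libraries lay within the range of the others. Its log2 difference was -0.06 with a 95% interval of -0.58 to 0.45 (limma, adjusted p = 0.858). Only 55 to 78 fragments lay behind a value, where counting error alone gives a coefficient of variation of about 12%. The 95% interval leaves room for a moderate change in either direction.

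PLAT (ENSG00000104368, chromosome 8, 42175233 to 42207724, minus strand), which acts on plasminogen bound to fibrin, was at 2.25, 2.38 and 2.60 FPKM in replicates 1, 2 and 3 with HYOU1 shRNA, against 1.33, 1.56 and 2.10 FPKM in control shRNA replicates 1, 2 and 3. The groups did not overlap, but the control libraries spread over a coefficient of variation of 24%. The log2 difference was 0.53 with a 95% interval of 0.043 to 1.02, and it did not pass after adjustment (limma, adjusted p = 0.133). It passed in 1 of 19 alternatives, the GC correction with the replicate block (limma, adjusted p = 0.0397).

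Set against its target enzymes, SERPINE2 mRNA was more abundant with HYOU1 shRNA. The ratio of SERPINE2 to the summed FPKM of PLAU and PLAT was 5.60, 6.32 and 4.77 in HYOU1 shRNA replicates 1, 2 and 3, against 3.09, 2.17 and 2.14 in control shRNA replicates 1, 2 and 3. The ratio of PLAUR to PLAU averaged 21.5 ± 4.77 with HYOU1 shRNA and 13.7 ± 1.51 with control shRNA (SD, n = 3 each). Both ratios were without overlap between the groups. SERPINE2 and PLAUR already lay apart by themselves, so the ratios are no independent result. The level of PLAU rests on 55 to 78 fragments in a library. The ratios are of mRNA levels, and no test was made on them.

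Both metalloproteinases were covered by few fragments. MMP14 (ENSG00000157227, chromosome 14, 22836557 to 22849027, plus strand), the membrane-type collagenase, was at 0.188, 0.280 and 0.243 FPKM in replicates 1, 2 and 3 with HYOU1 shRNA, against 0.696, 0.227 and 0.312 FPKM in control shRNA replicates 1, 2 and 3. These stand for 15, 23 and 19 fragments against 53, 19 and 25. The high value was that of control shRNA replicate 1, and the other control libraries lay within or just above the range of the HYOU1 shRNA libraries. The log2 difference, taken between the group means without a fit, was -0.50. With 1 library left out it ran from -0.77 without control shRNA replicate 2 to -0.13 without control shRNA replicate 1. It was -0.18 with a pseudocount of 1, and with a filter of 0.1 FPKM in place of 1 it did not pass (limma, adjusted p = 0.504).

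MMP2 (ENSG00000087245, chromosome 16, 55389700 to 55506691, plus strand), the secreted gelatinase that MMP14 activates, was at 0.102, 0.121 and 0.278 FPKM in replicates 1, 2 and 3 with HYOU1 shRNA, against 0.190, 0.184 and 0.102 FPKM in control shRNA replicates 1, 2 and 3. The groups overlapped. With 9 to 24 fragments per library, the coefficient of variation from counting error alone was 26.4%. In every library both genes lay above 3 fragments, a floor worth at most 0.0356 FPKM for MMP2 and 0.0394 FPKM for MMP14.

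TIMP1 and TIMP2 were the most abundant members, and the 3 TIMPs did not move together. TIMP3 (ENSG00000100234, chromosome 22, 32801701 to 32863043, plus strand), which binds to the matrix and also inhibits ADAM17, was at 18.0, 18.3 and 17.7 FPKM in replicates 1, 2 and 3 with HYOU1 shRNA, against 11.2, 9.80 and 11.6 FPKM in control shRNA replicates 1, 2 and 3. The HYOU1 shRNA libraries had a coefficient of variation of 1.79% and all lay above the controls. On the log2 scale it rose by 0.73 (standard error 0.12, 95% interval 0.45 to 1.01; limma, adjusted p = 0.0152). It passed without control shRNA replicate 1 (limma, adjusted p = 0.000284) and after the GC correction (0.00058), but not without control shRNA replicate 2 (0.0636) or without HYOU1 shRNA replicates 1, 2 or 3 (0.0964, 0.0979 and 0.0958).

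TIMP1 (ENSG00000102265, chromosome X, 47582313 to 47586789, plus strand), a secreted inhibitor that also has growth factor activity, was at 136, 157 and 154 FPKM in replicates 1, 2 and 3 with HYOU1 shRNA, against 182, 209 and 200.4 FPKM in control shRNA replicates 1, 2 and 3. All HYOU1 shRNA libraries lay below all control libraries. The mean was 149 ± 11.5 FPKM with HYOU1 shRNA and 197 ± 13.8 FPKM with control shRNA (SD, n = 3 each), a log2 difference of -0.40 with a 95% interval of -0.67 to -0.14 that did not pass (limma, adjusted p = 0.0629). It passed as a fall without control shRNA replicate 1 at -0.46 (limma, adjusted p = 0.0018), after the GC correction at -0.63 (0.00923) and with quantile normalization at -0.51 (0.0183).

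TIMP2 (ENSG00000035862, chromosome 17, 78852977 to 78925387, minus strand), which inhibits MMP2 and at low amounts helps MMP14 activate it, was at 90.4, 87.4 and 89.7 FPKM in replicates 1, 2 and 3 with HYOU1 shRNA, against 95.1, 85.9 and 84.5 FPKM in control shRNA replicates 1, 2 and 3. The groups overlapped. The 95% interval of its log2 difference, -0.23 to 0.25 around 0.01 (limma, adjusted p = 0.943), was narrower than that of PLAU, with 8539 to 9145 fragments behind each value.

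**Figure D2:**
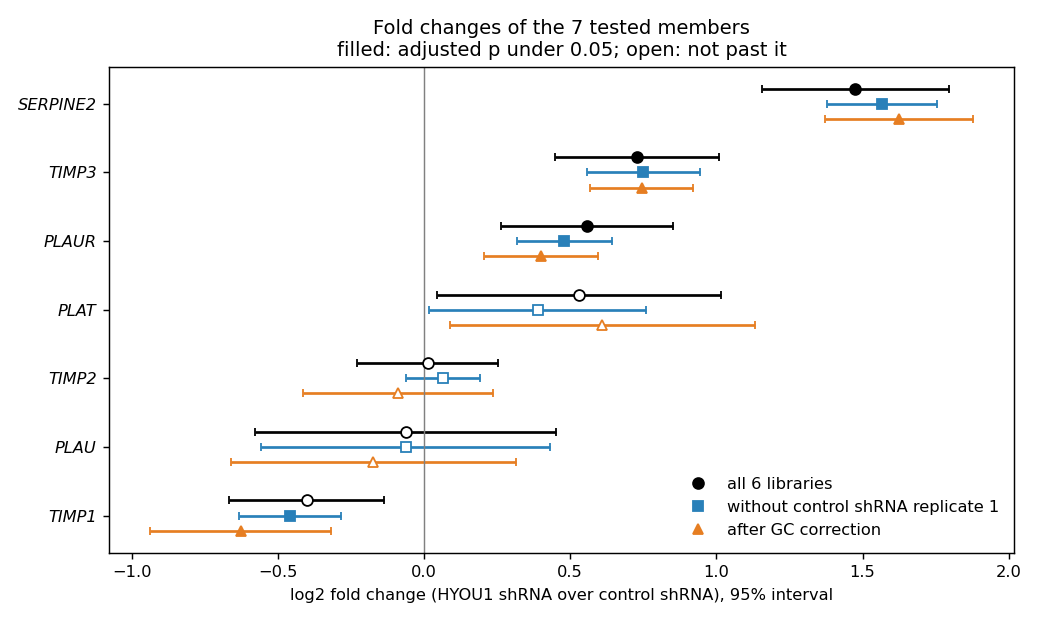
Log2 fold change of HYOU1 shRNA over control shRNA (horizontal axis) with its 95% interval for the 7 members tested, from all 6 libraries, without control shRNA replicate 1 and after the GC correction; filled symbols have an adjusted p under 0.05. SERPINE2, TIMP3 and PLAUR are filled in all 3 fits, and TIMP1 is filled in the fit without control shRNA replicate 1 and in the GC-corrected one.

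The make-up of the summed TIMP1, TIMP2 and TIMP3 transcripts differed between the groups. TIMP4, given below, is not part of that sum. The summed FPKM of TIMP1, TIMP2 and TIMP3 was 244, 263 and 262 in HYOU1 shRNA replicates 1, 2 and 3, against 288, 304 and 296 in control shRNA replicates 1, 2 and 3. TIMP3 made up 7.04% ± 0.307 of that sum with HYOU1 shRNA and 3.67% ± 0.392 with control shRNA (SD, n = 3 each). TIMP1 made up 58.1% ± 2.19 with HYOU1 shRNA and 66.4% ± 2.91 with control shRNA. The ratio of TIMP1 to TIMP3 was 7.55, 8.55 and 8.73 in HYOU1 shRNA replicates 1, 2 and 3, against 16.3, 21.3 and 17.2 in control shRNA replicates 1, 2 and 3. None of these values overlapped between the groups. As TIMP1 already lay lower and TIMP3 higher without overlap, their ratio had to separate, so it is no further result. No test was made on these values.

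**Figure D3:**
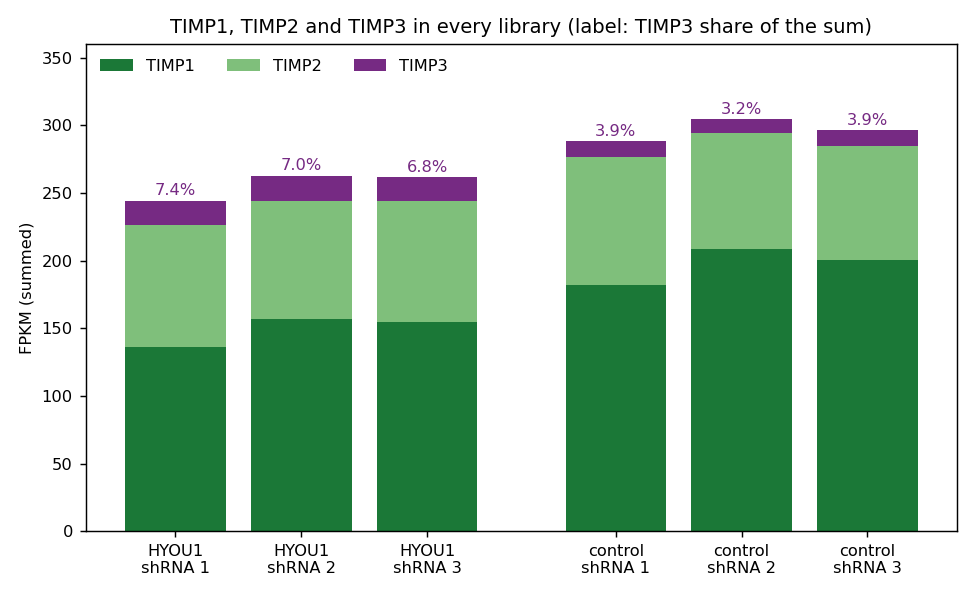
Summed FPKM of TIMP1, TIMP2 and TIMP3 (vertical axis, from 0) in each HYOU1 shRNA and each control shRNA library, stacked by gene; the number above a bar is the share of TIMP3 in percent. TIMP3 takes 6.76% to 7.37% of the sum with HYOU1 shRNA and 3.22% to 3.92% with control shRNA.

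Several members overlap other genes, and no source used here says if counting used strand. The interval of TIMP1 overlaps SYN1 and that of TIMP3 overlaps SYN3, both on the opposite strand. SYN1 averaged 0.0436 FPKM with HYOU1 shRNA and 0.02 FPKM with control shRNA, and SYN3 averaged 0.0479 FPKM with HYOU1 shRNA and 0.0272 FPKM with control shRNA. TIMP2 overlaps CEP295NL on the same strand, at 0.0466 FPKM with HYOU1 shRNA and 0.0934 FPKM with control shRNA, and PLAU overlaps C10orf55, at 0.0148 FPKM with HYOU1 shRNA and listed at 0 with control shRNA. The annotated overlapping gene with the most signal was RN7SL368P inside PLAUR, at 0.403 FPKM with HYOU1 shRNA and 0.519 FPKM with control shRNA.

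Among 20 other genes of the plasminogen system described here, IGF2R fell. Of these genes 11 were tested, 10 did not pass, and their median log2 fold change was -0.023, beside 0.035 over all genes tested. Of all genes tested 5.66% fell and 12.3% were called, so 1 call among 11 is near the background. IGF2R, the mannose 6-phosphate receptor that binds PLAUR and latent growth factors, was at 12.1, 10.9 and 12.6 FPKM in replicates 1, 2 and 3 with HYOU1 shRNA, against 16.2, 17.5 and 17.7 FPKM in control shRNA replicates 1, 2 and 3. It fell by 0.52 on the log2 scale (limma, adjusted p = 0.0347). Among libraries left out in turn it passed only without control shRNA replicate 1 (limma, adjusted p = 0.000791). Without each of the other 5 libraries the adjusted p of IGF2R lay between 0.0808 and 0.168, and it was 0.0762 with the replicate block. After the GC correction it fell by 0.52 (limma, adjusted p = 0.00168). S100A10, which with ANXA2 forms a plasminogen receptor, was at 131 ± 0.498 FPKM with HYOU1 shRNA and 106 ± 5.56 FPKM with control shRNA (SD, n = 3 each) and did not pass, at a log2 difference of 0.31 (limma, adjusted p = 0.0829). It passed without control shRNA replicate 1 at 0.27 (limma, adjusted p = 0.0055) and did not after the GC correction at 0.14 (0.375). LRP1, which takes up serpin and protease complexes, did not pass either, at a log2 difference of -0.24 (limma, adjusted p = 0.34). It passed as a fall without control shRNA replicate 1 at -0.37 (limma, adjusted p = 0.0106) and after the GC correction at -0.54 (0.0101). PLG, plasminogen itself, was listed at 0 in every library. S100A10, LRP1 and PLG are named after their values were seen.

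Of 21 other matrix metalloproteinases 4 were tested and none was called, where 12.3% of all genes tested were called. At an unadjusted p under 0.05 (limma) there were 2, where at least 3463 of the 12448 genes tested were under that cut. With voom 0 were called, against 1764 of all genes. The most abundant was MMP15, a membrane-type enzyme like MMP14, at 59.5, 60.4 and 66.7 FPKM in replicates 1, 2 and 3 with HYOU1 shRNA, against 26.3, 43.4 and 43.7 FPKM in control shRNA replicates 1, 2 and 3. The groups did not overlap, and control shRNA replicate 1 was the lowest library. The log2 difference of 0.75 did not pass (limma, adjusted p = 0.0686), passed without control shRNA replicate 1 at 0.51 (0.00064), and did not pass after the GC correction at 0.25 (0.101). MMP17, another membrane-type enzyme, was at 13.3 ± 1.34 FPKM with HYOU1 shRNA and 11.6 ± 4.13 FPKM with control shRNA (SD, n = 3 each). Its log2 difference of 0.26 did not pass (limma, adjusted p = 0.566). Without control shRNA replicate 1 it was -0.076 and did not pass either (limma, adjusted p = 0.541). After the GC correction MMP17 passed as a fall, at -0.33 (limma, adjusted p = 0.0263).

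Of 9 other inhibitors, inducers and activating convertases of metalloproteinases 7 were tested, and PCSK6 and TIMP4 fell, where 5.66% of all genes tested fell. TIMP4, the fourth inhibitor of the family, was at 4.54, 4.52 and 4.37 FPKM in replicates 1, 2 and 3 with HYOU1 shRNA, against 8.81, 8.38 and 7.73 FPKM in control shRNA replicates 1, 2 and 3. It fell by 0.88 on the log2 scale (standard error 0.12; limma, adjusted p = 0.0103), opposite in sign to that of TIMP3. PCSK6, a proprotein convertase of the furin family, was at 4.27, 4.26 and 4.64 FPKM in replicates 1, 2 and 3 with HYOU1 shRNA, against 8.80, 9.83 and 10.5 FPKM in control shRNA replicates 1, 2 and 3, and fell by 1.13 (limma, adjusted p = 0.00625). Without HYOU1 shRNA replicates 1, 2 or 3 neither gene passed, with adjusted p between 0.0758 and 0.0787 for TIMP4 and between 0.0550 and 0.0614 for PCSK6, nor did TIMP4 without control shRNA replicate 2 (0.0502). Both passed without control shRNA replicate 1, TIMP4 at -0.83 (limma, adjusted p = 0.000186) and PCSK6 at -1.19 (4.67e-05), and after the GC correction, TIMP4 at -0.99 (0.00261) and PCSK6 at -1.29 (0.000243). The other 5 did not pass with all libraries, and the median of the 7 was -0.62.

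Of 12 catalytic ADAM proteases, which shed proteins from the cell surface, 5 were tested. ADAM12 was at 1.63, 1.20 and 1.26 FPKM in replicates 1, 2 and 3 with HYOU1 shRNA, against 4.47, 3.56 and 3.47 FPKM in control shRNA replicates 1, 2 and 3. It fell by 1.43 on the log2 scale (limma, adjusted p = 0.00995) and the other 4 did not pass, where 5.66% of all genes tested fell. ADAM12 passed without control shRNA replicate 1 at -1.31 (limma, adjusted p = 0.000473) and after the GC correction at -1.38 (0.000716). It did not pass without HYOU1 shRNA replicates 2 or 3 (limma, adjusted p = 0.0720 and 0.0742). Of 19 ADAMTS proteases, secreted enzymes that cleave proteoglycans among other substrates, 5 were tested, 1 rose, 1 fell and 3 did not pass, where 6.6% of all genes tested rose and 5.66% fell. ADAMTS8 was at 3.51, 3.73 and 4.41 FPKM in replicates 1, 2 and 3 with HYOU1 shRNA, against 1.18, 1.35 and 1.96 FPKM in control shRNA replicates 1, 2 and 3, and rose by 1.34 on the log2 scale (limma, adjusted p = 0.0163). ADAMTS5, an aggrecanase, was at 0.512, 0.481 and 0.675 FPKM in replicates 1, 2 and 3 with HYOU1 shRNA, against 2.48, 1.56 and 1.58 FPKM in control shRNA replicates 1, 2 and 3, and fell by 1.57 (0.0221). Neither passed without HYOU1 shRNA replicates 1, 2 or 3 or control shRNA replicate 2 (limma, adjusted p between 0.0809 and 0.0961, and 0.0636, for ADAMTS8, and between 0.0813 and 0.102, and 0.0684, for ADAMTS5), and ADAMTS5 was at 0.0506 with the replicate block. Without control shRNA replicate 1 both passed, ADAMTS8 at 1.20 (limma, adjusted p = 0.00103) and ADAMTS5 at -1.36 (0.0058), as they did after the GC correction, ADAMTS8 at 0.96 (0.00661) and ADAMTS5 at -1.41 (0.00311).

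Of 15 other pericellular serine proteases and inhibitors 7 were tested. PRSS23, a secreted serine protease, was at 16.6, 16.3 and 16.3 FPKM in replicates 1, 2 and 3 with HYOU1 shRNA, against 22.7, 24.0 and 24.2 FPKM in control shRNA replicates 1, 2 and 3. It fell by 0.52 (limma, adjusted p = 0.0264) and the other 6 did not pass. With 12.3% of all genes tested called, 1 call among 7 is near the background. In the fits that left out 1 library PRSS23 passed only without control shRNA replicate 1 (limma, adjusted p = 0.000238), with 0.0660 to 0.141 otherwise, and with the replicate block it was at 0.0688. After the GC correction it passed at -0.41 (limma, adjusted p = 0.0434).

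**Figure D4:**
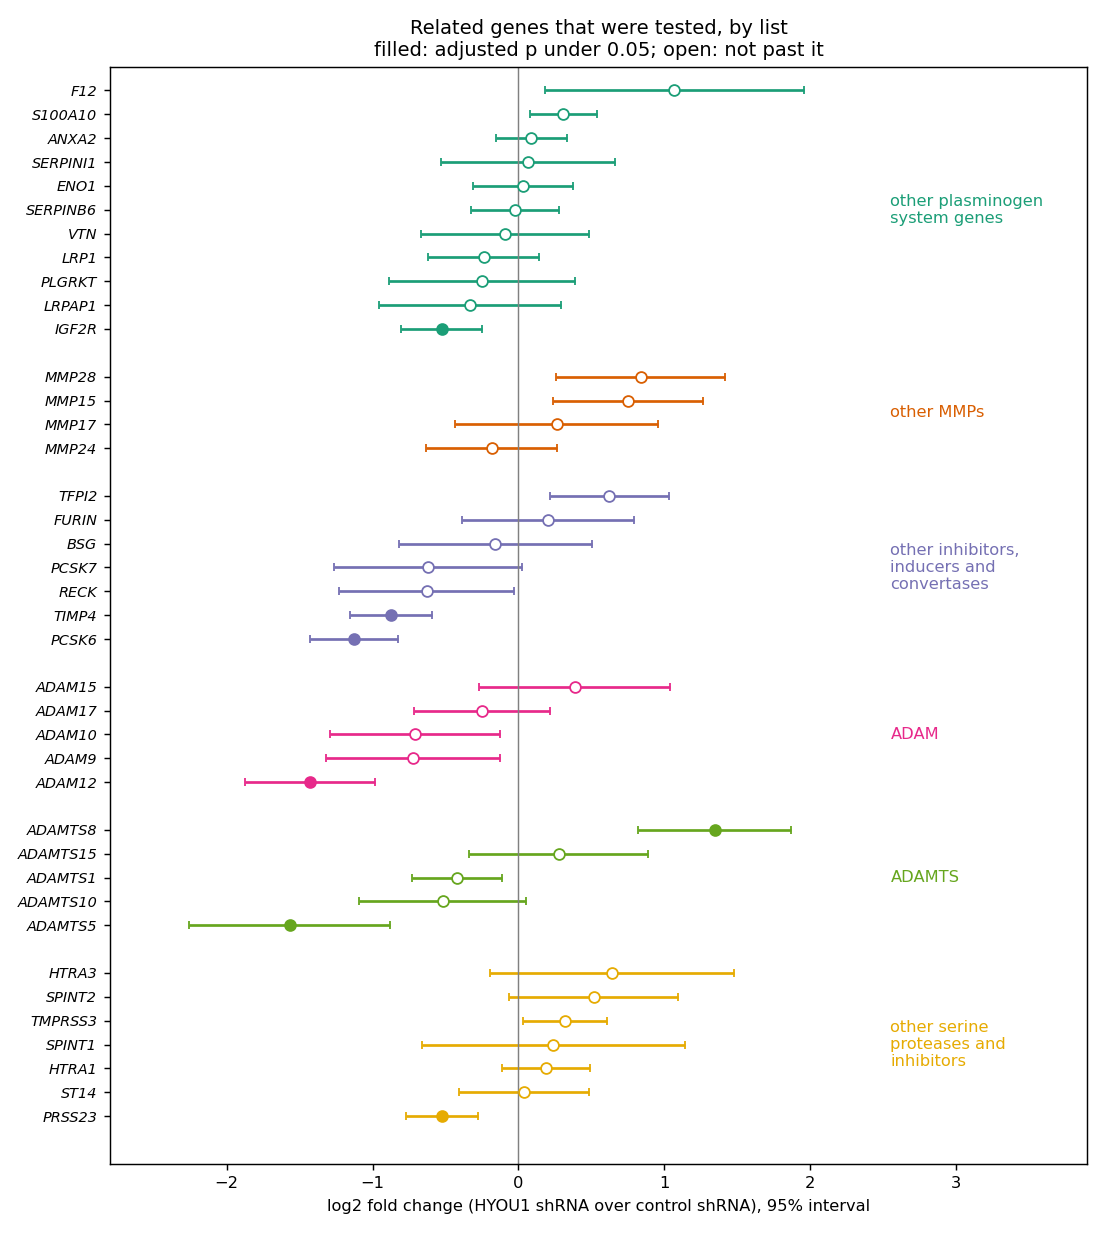
Log2 fold change of HYOU1 shRNA over control shRNA (horizontal axis) with its 95% interval for the related genes that were tested, by list and from the highest to the lowest; filled points have an adjusted p under 0.05. ADAMTS8 is the filled point above 0, and IGF2R, PCSK6, TIMP4, ADAM12, ADAMTS5 and PRSS23 those below it.

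TIMPs, SERPINE2 and plasminogen activators are also made by stromal cells, so markers of other cell types are given beside them. Of 12 fibroblast and stellate cell markers COL1A2 and POSTN were listed at 0 in every library, COL3A1 averaged 0.0276 FPKM with HYOU1 shRNA and 0.0348 FPKM with control shRNA, and the summed level of the list was 16.0 to 16.9 FPKM with HYOU1 shRNA and 12.2 to 14.3 FPKM with control shRNA. Of its 5 tested genes DES and COL1A1 rose and DCN fell, where 6.6% of all genes tested rose and 5.66% fell. The log2 differences were 2.00 for DES (limma, adjusted p = 0.00458), 1.09 for COL1A1 (0.0159) and -1.35 for DCN (0.00708). Leaving out control shRNA replicate 1 gave 2 higher and 2 lower calls in this list, where 44.3% of all genes were called. The GC-corrected fit had 2 of each as well, against 40.6% of all genes called. These counts are for the list as a whole. The 15 immune markers summed to 1.33 to 1.40 FPKM with HYOU1 shRNA and 0.677 to 2.31 FPKM with control shRNA, with PTPRC listed at 0. The 10 endothelial markers summed to 22.6 to 27.4 FPKM with HYOU1 shRNA and 18.9 to 30.6 FPKM with control shRNA, nearly all of it ENG. The part of these markers in the results was not tested.

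SERPINE2 was the member with the largest called rise, and 3 genes followed its pattern most closely over the 6 libraries. Likeness was the root mean square difference of log2(FPKM + 0.1), each gene centred on its own mean, from SERPINE2, and its median over 10643 other protein-coding genes was 0.766. RPUSD4, a mitochondrial pseudouridine synthase, was closest at 0.092, with 18.6, 18.3 and 19.0 FPKM in replicates 1, 2 and 3 with HYOU1 shRNA, against 6.80, 6.33 and 6.63 FPKM in control shRNA replicates 1, 2 and 3. TXNIP, an inhibitor of thioredoxin, was at 0.0972, with a mean of 241 FPKM with HYOU1 shRNA and 76.7 FPKM with control shRNA. SEPT3, a septin whose name the table holds as a date and which was identified by its gene ID, was at 0.107. With 6 libraries in 2 groups any gene that rose by a like amount scores close, so this describes the libraries only.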

How the data were processed

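The authors deposited 1 table of FPKM values, in which fragment counts had been divided by gene length and a scaled library total. Per the file header it gives gene length, coordinates and biotype. No source used here names the aligner, the counter or the build. Each of 58735 gene identifiers, with its coordinates, matched GENCODE release 29 on GRCh38. FPKM times gene length came in whole multiples of 1 step per library (tolerance 0.01 fragments), from which fragments were recovered; depths and floors of 3 fragments cover counting error only.

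Values were transformed to log2(FPKM + 0.1), so fold changes understate changes of weakly expressed genes. The 12448 genes averaging 1 FPKM or more over the 6 libraries were fitted in limma 3.58.1 (R 4.3.3) (eBayes with trend and robust priors), adjusted over all genes tested by Benjamini-Hochberg, and called under 0.05, two-sided. The fit was tested on simulated data with independent normal noise and a small share of changed genes. The noise was sized from the fit without control shRNA replicate 1, so the simulation does not cover the deviation of that library. The members and lists were chosen with earlier results of these data known. All members are named; of each related list, up to 6 called genes, or the 2 most abundant if none was called. The GC correction removed a lowess trend (span 0.3) on GC content of the longest transcript from each library, with any real difference that follows GC content. It leaves 6 genes without GC values as they were. Sequences come from RefSeq tables on GRCh38.p14; MMP2, PLAT and TIMP2 had no entry. A gene of the related lists is not reported here. Alternatives are given in the closing section.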

Additional observations from a re-analysis of the deposited data

How the results depend on the processing

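SERPINE2 was called in each alternative run, TIMP3 in 16 of 20 and PLAUR in 13 of 20. Leaving out 1 library gave 1 to 3 members that rose and 0 to 1 that fell, against 3 and 0 with all 6 libraries. SERPINE2 alone rose without HYOU1 shRNA replicate 1, 2 or 3 or control shRNA replicate 2. TIMP1 was the 1 member that fell under quantile normalization, the GC correction, the GC correction with the replicate block, and either fit without control shRNA replicate 1. Over all genes 1526 were called, and 938 with a filter of 5 FPKM, 770 with no filter, 5048 after the GC correction, 4504 with the replicate block added to it, 6049 with the GC correction without control shRNA replicate 1 (an alternative added after seeing the data), and 49 to 5518 when 1 library was left out. For the related lists, leaving out 1 library gave 0 to 5 calls for the plasminogen system (1 with all libraries), 0 to 2 for other metalloproteinases (0), 0 to 5 for inhibitors and convertases (2), 0 to 3 for ADAM proteases (1), 0 to 4 for ADAMTS proteases (2) and 0 to 3 for serine proteases (1). In the same order the GC correction gave 3, 2, 6, 3, 4 and 2. The GC correction without control shRNA replicate 1 gave 5, 4, 7, 3, 4 and 3, and with the replicate block 4, 0, 4, 3, 4 and 2. The list counts pool rises and falls. For other metalloproteinases the 2 calls were rises without control shRNA replicate 1 and falls after the GC correction. The plasminogen system had 0 calls with no filter and 0 under TPM scaling, ADAM and ADAMTS proteases had 0 with a filter of 5 FPKM, which removes ADAM12, ADAMTS8 and ADAMTS5 from the test, and serine proteases had 2 with a filter of 0.1 FPKM and 0 with no filter. The log2 difference of PLAU ran from -0.18 without HYOU1 shRNA replicate 3 to 0.084 without HYOU1 shRNA replicate 2 when 1 library was left out. That of TIMP2 turned to -0.076 under quantile normalization, -0.090 after the GC correction with or without the block, -0.0018 with voom, -0.0079 without control shRNA replicate 2, and -0.020 to 0.065 over the fits without 1 library, lowest without control shRNA replicate 3, and was never called. The cause of the other shifts was not tested.

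Same-numbered libraries did not deviate together in each case (correlations of 0.125, -0.093 and 0.17 for numbers 1, 2 and 3), so the numbers were not taken as pairs. With the replicate block 940 genes were called, PLAUR did not pass (adjusted p = 0.0603), and the lists had 0 calls for the plasminogen system, 1 for other metalloproteinases, 1 for ADAMTS and 0 for serine proteases. Depth was low for MMP2, MMP14 and PLAU, with 9 to 78 fragments in a library.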

Other observations

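The 7 CCAAT boxes of the SERPINE2 promoter window lie 3 on the gene's strand and 4 on the other. Of these, 6 recur at a spacing of 77 bases, and the box at the far upstream end of the window lies outside that spacing. Units of that length were taken from each box on the gene's strand. Units 1 and 2 have 89.6% of bases in common, units 1 and 3 have 63.6%, and units 2 and 3 have 58.4%, compared without gaps.

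GC content of the longest transcript ran from 41% for SERPINE2 to 58.9% for MMP14. Control shRNA replicate 1 stood farthest from the other control libraries in MMP14, by 1.12 on the log2 scale. That value rests on 53 fragments against 19 and 25. The difference was 0.28 in MMP2 (56.5% GC) and 0.27 in SERPINE2, but -0.17 in TIMP1 (57.9% GC) and -0.23 in PLAUR (55.7% GC). A link of the deviation to GC content was not tested.

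The summed level of 10 biliary markers was 108 to 113 FPKM in HYOU1 shRNA libraries and 97.8 to 108 FPKM in control shRNA libraries, and that of 15 hepatocyte markers was 6.04 to 7.25 FPKM in HYOU1 shRNA libraries and 9.15 to 11.9 FPKM in control shRNA libraries. Most of the hepatocyte sum was RBP4, at a mean of 6.62 FPKM over the 6 libraries. Its values overlapped between the groups, and its log2 difference of -0.55 was not called. RBP4 was called as a fall without control shRNA replicate 1 and after the GC correction.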
